A study of Mus musculus with 24 samples.

Results

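Interferon-stimulated genes were followed through every group of the series as a list of 35 genes that type I interferon is known to induce: Ifit1, Ifit2, Ifit3, Isg15, Irf7, Irf9, Stat2, Oas1a, Oas2, Oas3, Oasl1, Oasl2, Mx1, Mx2, Rsad2, Cmpk2, Usp18, Ddx58, Ifih1, Dhx58, Zbp1, Ifi44, Cxcl10, Siglec1, Xaf1, Rtp4, Herc6, Ifi35, Bst2, Parp14, Lgals3bp, Eif2ak2, Iigp1, Trim25 and Parp9. A gene was kept when it reached at least 1 CPM, reads scaled to library size, in any group, and 35 of 35 did so, out of 23420 genes listed. The series holds polyadenylated RNA of mouse bone marrow-derived macrophages, which are macrophages grown from marrow progenitors, here for 6 days with M-CSF, from male C57BL/6 mice of 3 months. It consists of 24 samples in 12 groups of 2, in 2 experiments whose values were deposited separately.

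In the antagonist experiment (8 samples) cells received DMSO:EtOH vehicle, GW9662, IL-4 with vehicle, or IL-4 with GW9662, each for 24 h. GW9662 is an antagonist of the nuclear receptor PPARγ, and the labels give no dose for it. In the memory experiment (16 samples) wild type and PpargKO cells were left unstimulated, given IL-4 for 3 h for the first time, given IL-4 for 24 h, then washed and left in differentiation medium for 24 h more, or treated in that last way and then given IL-4 again for 3 h. These groups are called unstimulated, first exposure, washed-out and second exposure. IL-4 was labelled as 20 ng/ul. The labels name no Cre driver or allele for PpargKO. Nor is it stated if both samples of a group are from different mice or dishes, and p-values therefore measure only the spread between these samples, which may be technical.

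Type I interferon binds the receptor made of IFNAR1 and IFNAR2, whose kinases JAK1 and TYK2 phosphorylate STAT proteins, STAT2 among them. STAT2 and IRF9 are subunits of the complex ISGF3, which binds the interferon-stimulated response element (ISRE) in promoters of genes such as those listed here. Macrophages keep many of these genes at a basal level through low continuous interferon signalling, and IRF7, itself such a gene, amplifies the response. IL-4 signals through STAT6 and drives alternative macrophage activation, in which PPARγ, encoded by Pparg, is one of the induced regulators.

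Promoters are shown for 3 members because they differed in the motifs found and all had large values in the antagonist experiment. Each sequence is the 250 bases before a start site in RefSeq's table (build GRCm38.p6), 5′ to 3′ on the gene's strand: Ifit3 at chr19:34583279-34583528 (plus strand), Isg15 at chr4:156200819-156201068 (minus strand) and Ifit2 at chr19:34550444-34550693 (plus strand). Capitals mark the ISRE core, 2 runs of GAAA with any 2 bases between them, in either orientation.
Ifit3: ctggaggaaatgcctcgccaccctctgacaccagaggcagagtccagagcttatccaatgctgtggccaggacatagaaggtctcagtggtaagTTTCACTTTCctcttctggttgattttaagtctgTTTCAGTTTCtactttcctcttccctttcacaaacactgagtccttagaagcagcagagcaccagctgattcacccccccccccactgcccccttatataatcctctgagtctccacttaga
Isg15: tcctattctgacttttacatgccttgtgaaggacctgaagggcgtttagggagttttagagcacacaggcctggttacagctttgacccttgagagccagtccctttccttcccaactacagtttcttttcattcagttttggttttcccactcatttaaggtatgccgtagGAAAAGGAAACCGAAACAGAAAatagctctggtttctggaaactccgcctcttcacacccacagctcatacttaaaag
Ifit2: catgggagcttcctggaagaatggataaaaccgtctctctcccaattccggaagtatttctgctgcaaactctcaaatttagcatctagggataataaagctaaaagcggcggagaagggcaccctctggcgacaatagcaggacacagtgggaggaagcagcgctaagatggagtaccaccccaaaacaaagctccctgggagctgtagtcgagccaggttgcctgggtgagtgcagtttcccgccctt
In Ifit3 the matches began at positions -156 and -122 from the start, both in the reverse orientation. In Isg15 they began at -78, -72 and -66 and overlapped each other. The Ifit2 window held no match to these letters. RefSeq's table has a second Ifit2 start, whose window (chr19:34550838-34551137) is not printed and held none either.

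RefSeq's table listed 24 of the 35 members, and the window searched for motifs was 300 bases, 250 before and 50 after the start, on both strands. The ISRE core was present in 12 of the 24: Ifit1, Ifit3, Isg15, Stat2, Oas1a, Oas3, Rsad2, Ddx58, Ifih1, Cxcl10, Bst2 and Eif2ak2. It was present in 3.89% of the 16375 genes of the expression tables with a window and in 3.44% of all 32851 windows. The STAT6-type motif, TTC and GAA with any 4 bases between them, was present in 4 of the 24 (Ifit2, Irf9, Stat2 and Oas1a, for Ifit2 in the window of its second start), against 7.41% of genes. The GAS-type motif TTCNNNGAA was present in 5 of the 24 (Ifit2, Oas1a, Ifi35, Bst2 and Eif2ak2), against 9.15% of genes. Oas2, Mx1, Mx2, Usp18, Dhx58, Zbp1, Siglec1, Rtp4, Parp14, Iigp1 and Parp9 were not in that table.

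The deposited values were group means, and the 2 libraries behind each mean were recovered from it as whole read counts. They are called the deeper and the shallower library, since the means do not carry replicate numbers. Reads assigned to genes numbered between 15921754 and 27711533 per antagonist library, where 3 reads were worth 0.105 to 0.181 CPM, and between 5445834 and 16604340 per memory library, where they were worth 0.183 to 0.526 CPM. Levels are in CPM with no correction for gene length, so they are compared between groups and not between genes. Libraries also fell into 2 kinds by how many reads were assigned to genes with near-identical copies. In the memory experiment the 7 libraries of the higher kind were all wild type, and the other 9 were the 8 knockout-labelled libraries and the shallower washed-out wild type library. In the antagonist experiment 3 libraries were of the higher kind: the shallower with vehicle, the deeper with IL-4 and the shallower with both agents. Oas1a (57.1% of sequence words shared with other genes), Ifit3 (51.2%), Herc6 (23.9%) and Rtp4 (13.8%) are the members most exposed to this, and their values are uncertain where the kinds differ.

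Cell identity and labels were checked on other genes. All 7 macrophage markers were at or above 1 CPM in every group. The summed markers of plasmacytoid dendritic cells, the classical interferon producers, were between 0.55 and 3.80 CPM over the 12 groups, and those of T and NK cells between 0.070 and 0.53. Of 9 interferon genes listed, 8 were at 0 in every group, and Ifnb1 was at most 0.10 CPM. Lyz2 is the gene into which the myeloid LysM-Cre allele is inserted. In the memory experiment it was at 14.5 to 41.8 CPM in the knockout-labelled groups and at 21970 to 30730 in the wild type groups. The gene-level Pparg mean was 21.1 CPM in unstimulated knockout-labelled cells and 23.0 in wild type cells, so it does not check a deletion of part of the gene, and "knockout-labelled" is used below. The wild type second-exposure libraries stood apart. Fibroblast markers (Col1a1, Col1a2, Col3a1 and Pdgfrb) summed to 1136 CPM in the deeper one, 39.3 in the shallower one and 0.70 to 10.9 in all other memory libraries. In the shallower one long transcripts were under-represented: the median deviation, from the mean over libraries, of genes in the top range of transcript length minus that of genes in the bottom range was -1.05 on the log2 scale, against 0.18 in the deeper one and -0.16 to 0.36 in the other memory libraries.

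After 24 h of IL-4 the interferon-stimulated genes were lower than in vehicle-treated macrophages, in every functional class. Of the 35, 29 fell and none rose, and the members' median log2 ratio was -1.69, a median that lay at -0.0045 over all 11124 genes tested. Calls are at an adjusted p under 0.05 from limma, a linear model fitted over all genes of an experiment with p-values adjusted over all genes tested, and ratios are of group means with 1 CPM added. Among all genes 8.33% were called lower and 9.79% higher. All 35 ratios were below 0, and 27 members were lower by more than 2-fold, against 6.55% of all genes. Both IL-4 libraries lay below both vehicle libraries for 32 of the 34 members with library values, against 30.4% of all genes.

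The IFIT proteins, which bind viral RNA and block its translation, had the largest fall as a family, with 3 of 3 called. Ifit3 was at 149.0 and 189.9 CPM in the deeper and shallower vehicle libraries and at 5.11 and 3.14 in the IL-4 libraries. Its log2 ratio was -5.06 (SE 0.35, limma adjusted p 0.000142), a 33.3-fold difference of means. Ifit2 was at 176.0 and 135.9 CPM with vehicle and at 9.84 and 9.53 with IL-4, a log2 ratio of -3.88 (SE 0.24, limma adjusted p 9.6e-05). The groups were far apart for both genes. Ifit1 moved alike, from 84.8 and 70.1 CPM to 4.83 and 3.86.

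Cxcl10, a chemokine that draws activated T cells, was at 30.5 and 23.2 CPM with vehicle and at 0.552 and 0.121 with IL-4, the last of these under the 3-read level of that library. Its log2 ratio was -4.38 (SE 0.38, limma adjusted p 0.000347). Because IL-4 left so few reads, the added 1 CPM understates this fold.

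Among the transcription factors, Irf7 was at 920.1 and 645.7 CPM with vehicle and at 126.2 and 182.2 with IL-4, a log2 ratio of -2.34. The vehicle libraries differed from each other, but the groups did not overlap. Stat2, a subunit of ISGF3, fell less (210.1 and 166.6 to 98.8 and 118.3 CPM, log2 ratio -0.79). Irf9, the DNA-binding subunit, was not called at -0.70. All 4 nucleic acid sensors were called lower: Ddx58, which encodes RIG-I, at -1.67, and Ifih1 (MDA5), Dhx58 (LGP2) and Zbp1, a sensor of Z-form nucleic acid, each at -1.18.

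Of the 5 OAS members, whose enzymes make the oligoadenylate that activates RNase L or are related to them, 4 fell: Oas2 and Oasl1 at -2.62 each, Oasl2 at -2.30 and Oas3 at -1.88. Oas1a, at -0.99, was not called. Of 7 other antiviral effectors, 6 fell, from Iigp1, an immunity-related GTPase, at -3.26 and Rsad2 (viperin, which makes a chain-terminating nucleotide) at -3.18 to Eif2ak2 (the kinase PKR) at -1.06. The Mx GTPases were at -2.86 for Mx1 and -2.40 for Mx2, and Cmpk2, a mitochondrial nucleotide kinase, at -2.53. Bst2 (tetherin, which holds budding virions at the membrane) was not called at -0.61. With the counting kind of the libraries as a term in the model, Oas1a (-0.96), Irf9 (-0.71) and Bst2 (-0.62) were called lower.

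The ISG15 system split. Isg15, the ubiquitin-like modifier, fell from 84.4 and 80.4 CPM to 17.2 and 17.9 (log2 ratio -2.17), and Herc6, the mouse ISG15 ligase, was also called lower, at -1.56. Usp18, the protease that removes ISG15 and restrains IFNAR2, was at 59.95 and 53.2 CPM with vehicle and at 47.2 and 57.4 with IL-4, and these libraries overlapped (log2 ratio -0.11). Trim25, a ubiquitin ligase that acts on RIG-I, was at 335.4 and 287.7 against 291.6 and 288.0 (-0.10). Siglec1, the macrophage lectin sialoadhesin, was called lower at -1.69, and Lgals3bp, a secreted galectin ligand, was not, at -0.08. The ADP-ribosyltransferase family members Parp14 and Parp9 fell, at -1.31 and -1.25, as did Ifi44 (-2.94), Rtp4 (-2.26), Xaf1 (-1.58) and Ifi35 (-0.61).

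**Figure D1:**
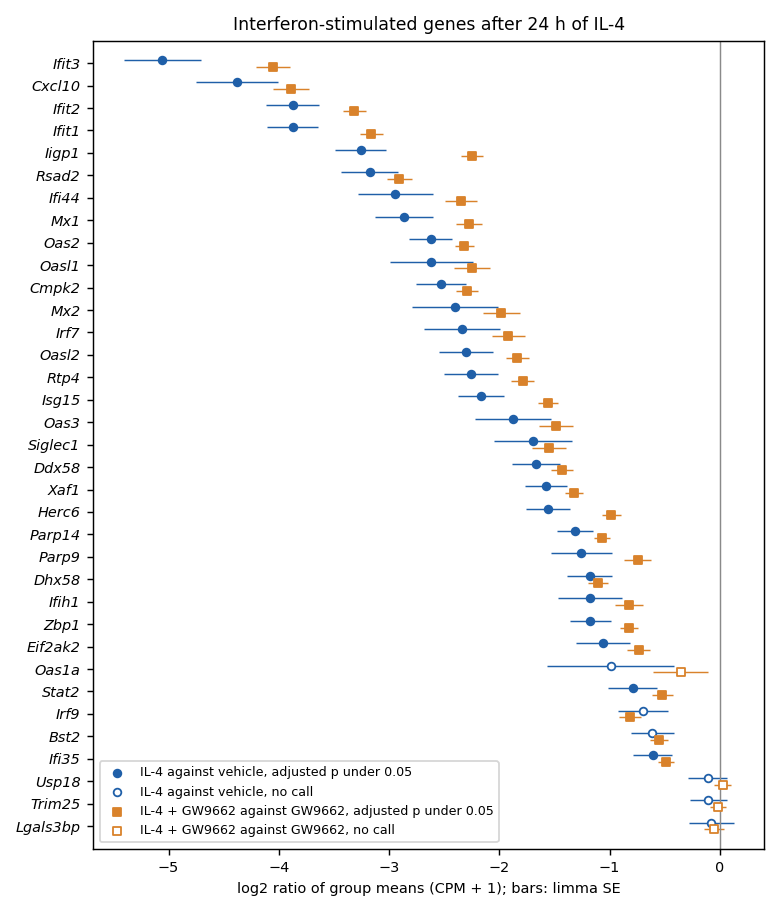
Log2 ratio of group means (horizontal axis, CPM + 1) for each of the 35 members after 24 h of IL-4, against vehicle (circles) and with GW9662 in both groups (squares). Bars are limma standard errors and filled symbols have an adjusted p under 0.05. The order of the genes runs from Ifit3 at -5.06 to Lgals3bp at -0.08, and 29 circles and 31 squares are filled.

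With 1 of the 4 libraries compared left out in turn, 21 to 30 members were called lower, and 19 of the 29 calls held in all 4 omissions. Stat2, Oas3, Mx2, Ifih1, Dhx58, Zbp1, Siglec1, Ifi35, Eif2ak2 and Parp9 each lost the call without the deeper or the shallower IL-4 library, and Stat2, Ifih1 and Ifi35 also without the deeper vehicle library. With voom, Stat2 and Ifi35 were not called. Other measures moved with IL-4 as well. Summed neutrophil markers were at 273.2 CPM with vehicle and 153.8 with IL-4, with 0 of 4 tested markers called lower. Summed macrophage markers were at 38610 and 17780, with 4 of 6 tested markers called lower. The macrophage sum is over 7 markers and includes Lyz2. The Lyz2 range given above, 21970 CPM or more, is for the wild type groups of the memory experiment and not for these groups. The same length measure was -0.29 in the shallower IL-4 library and -0.15 to 0.16 in the other antagonist libraries. Their part in these results was not tested, and in such bulk samples fewer cells of a type and less RNA per cell cannot be told apart.

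With GW9662 on its own the members' ratios to vehicle were small and mostly below 0. None of the 35 was called by limma, and none of 10922 genes was (0.0% in each direction), while 13 members and 246 genes had an unadjusted p under 0.05. The voom form of limma also called none. The members' median was -0.23, with 34 of 35 ratios below 0, and both GW9662 libraries lay below both vehicle libraries for 19 of 34 members, against 12.6% of all genes. The largest were Oas1a at -0.64, Ifit3 at -0.59 (95% interval -0.96 to -0.20 for the fitted difference) and Ifi44 at -0.50. Oas1a and Ifit3 share much sequence with other genes. Of the libraries compared only the shallower vehicle one was of the higher counting kind, so these 2 values are uncertain. Ifit3 was at 113.4 and 111.2 CPM with GW9662, under both vehicle values, and Ifit2 at 118.3 and 111.6. The size of this shift varied with the vehicle library left out: the members' median was -0.07 without the deeper one and -0.38 without the shallower one. With the counting kind as a term in the model, Ifit2 (-0.52), Irf7 (-0.44) and Zbp1 (-0.38) were called lower.

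GW9662 added to IL-4 did not bring the members back to the vehicle level. Ifit3 was at 4.70 and 6.92 CPM with both agents, Ifit2 at 11.001 and 10.3, and Irf7 at 173.3 and 160.6, all far from vehicle. Against IL-4 alone none of 34 members tested and none of 10851 genes was called by limma (0.0% in each direction), and no member had an unadjusted p under 0.05. The voom form called none either. Ratios were above 0 for 26 of the 34 members. Both libraries with both agents lay above both IL-4 libraries for 9 of 34 members, against 6.14% of all genes. They lay below for none, against 5.14% of all genes. The median was 0.08, and the 95% interval of the fitted difference ran from -0.39 to 1.23 for Ifit3 and from -0.42 to 0.67 for Ifit2, so modest effects in either direction could not be told from none. Cxcl10 was below the 1 CPM filter in both groups and was not tested.

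With GW9662 present in both groups, IL-4 lowered 31 of 35 members and raised none (background 25.1% lower and 26.3% higher of 11114 genes). The median was -1.49, and 22 members were lower by more than 2-fold, against 6.2% of all genes. Ifit3 had a log2 ratio of -4.06 (SE 0.15, limma adjusted p 9.05e-07), Cxcl10 of -3.89 (SE 0.16, limma adjusted p 1.55e-06) and Ifit2 of -3.31 (SE 0.10, limma adjusted p 3.86e-07). All 31 calls held without any 1 library. Without group weights Eif2ak2 and Parp9 were not called. The 29 members lower against vehicle were lower here too, joined by Irf9 (-0.81) and Bst2 (-0.55). Oas1a, Usp18, Lgals3bp and Trim25 were called in neither comparison. With the counting kind as a term, Oas1a was called lower in both, at -0.96 against vehicle and -0.79 with GW9662 in both groups. The neutrophil markers were at 288.5 CPM with GW9662 and 167.9 with both agents, and their part was not tested.

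The IL-4 effect with GW9662 was smaller in size than without it for 34 of the 35 members (median difference 0.36), but the test of that difference called none by limma or by voom, of 11216 genes (0.0%). An unadjusted p under 0.05 was reached by 5 members. For Ifit3 the difference was 1.00 (95% interval of the fitted value 0.11 to 1.89, limma adjusted p 0.999), and for Isg15 it was 0.61. The vehicle libraries, with which the size of the GW9662 shift varied, enter this difference too.

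**Figure D2:**
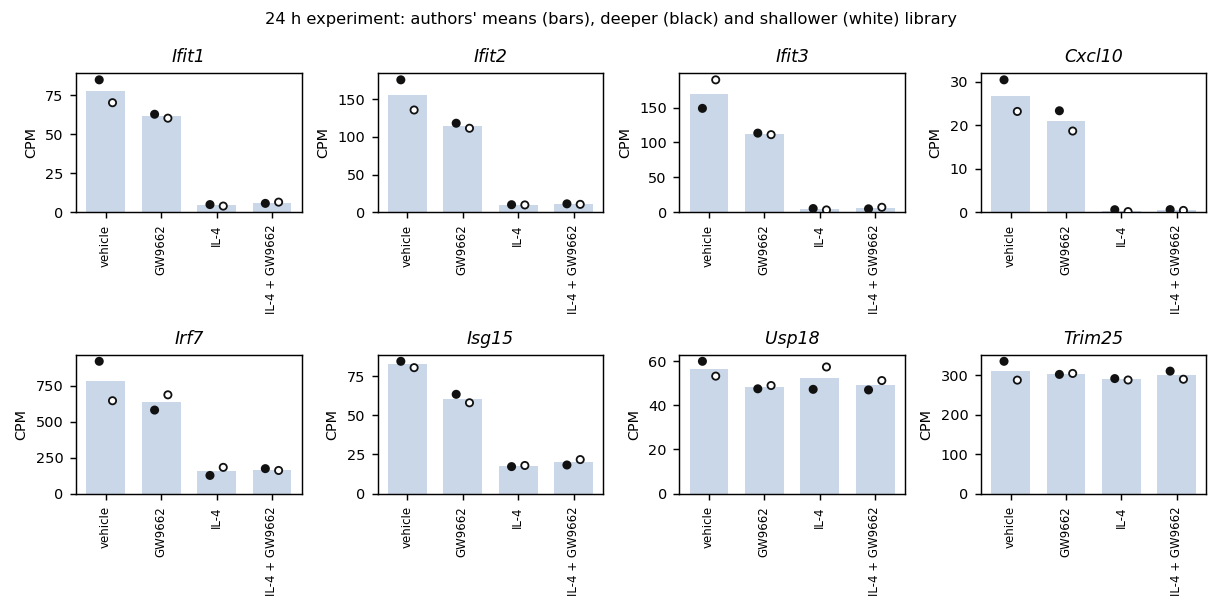
Levels of 8 members in the antagonist experiment in CPM (vertical axis, from 0) for vehicle, GW9662, IL-4 and IL-4 with GW9662, each for 24 h. Bars are the authors' means, black points the deeper and white points the shallower library. Ifit1, Ifit2, Ifit3, Cxcl10, Irf7 and Isg15 are low in both groups with IL-4, while Usp18 stays between 46.97 and 59.95 CPM and Trim25 between 287.7 and 335.4.

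At 3 h the first exposure to IL-4 gave another picture, with a mixture of rises and falls. In wild type cells 11 of 35 members rose and 4 fell (background 24.7% higher and 24.9% lower of 11344 genes), so the share called did not stand out from that of all genes. The members' median was 0.10. All 15 calls held without any 1 library, but without group weights Oas1a, Oas3, Xaf1, Bst2 and Herc6 lost theirs, which left 7 members higher.

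Irf7 and Zbp1 rose most. Irf7 was at 104.7 and 105.6 CPM in unstimulated wild type cells and at 417.1 and 389.3 after 3 h, a log2 ratio of 1.93 (SE 0.09, limma adjusted p 1.72e-11). Zbp1 went from 19.1 and 19.0 CPM to 66.2 and 70.5, a log2 ratio of 1.79 (SE 0.11, limma adjusted p 9.4e-10). In both genes the libraries of a group lay close together and the groups far apart. Usp18 rose from 14.2 and 13.1 CPM to 34.3 and 34.5 (1.27), and smaller rises were called for Ifi35 (0.77), Stat2 (0.64), Oas1a (0.55), Dhx58 and Xaf1 (0.50 each), Bst2 (0.43), Oas3 (0.41) and Lgals3bp (0.31).

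Cxcl10 fell, from 4.59 and 6.18 CPM to 1.16 and 1.64 (log2 ratio -1.41, SE 0.34, limma adjusted p 0.00256). Rsad2 fell from 16.6 and 16.6 CPM to 8.11 and 8.77 (-0.90), Trim25 from 241.5 and 221.9 to 142.7 and 145.9 (-0.68), and Herc6 by a log2 ratio of -0.44. None of the 3 IFIT members was called, with ratios from -0.28 to -0.25, and neither were Mx1 (0.14), Mx2 (-0.34) or Isg15 (0.44).

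The knockout-labelled cells gave 9 higher and 7 lower members (background 21.6% and 22.9% of 11207 genes), shares that again did not stand out from those of all genes. Irf7 went from 151.8 and 164.5 CPM to 362.4 and 385.8 (log2 ratio 1.24, SE 0.09, limma adjusted p 2.31e-09). Zbp1 went from 18.6 and 20.8 to 45.1 and 49.1 (1.22, SE 0.11, limma adjusted p 7.46e-08), and Rsad2 from 17.6 and 15.3 down to 5.97 and 8.07 (-1.12, SE 0.19, limma adjusted p 0.000101). Irf7, Stat2, Oas1a, Usp18, Zbp1 and Ifi35 were called higher in both genotypes, and Rsad2, Herc6 and Trim25 lower in both. Without group weights Oas1a and Herc6 were called in neither genotype. Of the 16 calls, 7 held without any 1 library, those of Irf7, Zbp1 and Rsad2 among them. Without the shallower unstimulated library 5 members were higher and 3 lower, without the shallower first-exposure library 5 were higher, and without the deeper one 3 were lower. Without group weights 5 were higher and 2 lower. Neither limma nor voom called any member in the test of the genotypes' difference (background 0.0087% higher and 0.0174% lower of 11493 genes), and 9 members had an unadjusted p under 0.05. The nearest was Irf7, whose rise was smaller by 0.69 in the knockout-labelled cells (a difference of -0.69, SE 0.12, limma adjusted p 0.0704). It was called with the counting kind as a term in the model, and 1 member was called without the shallower wild type first-exposure library.

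Set side by side, the 2 durations differed in direction for several members. Of the 29 members lower at 24 h, 7 were higher at 3 h in wild type cells: Irf7, Stat2, Oas3, Dhx58, Zbp1, Xaf1 and Ifi35. A further 3 were lower at both times (Rsad2, Cxcl10 and Herc6) and 19 had no call at 3 h. Oas1a, Usp18, Bst2 and Lgals3bp were called higher at 3 h and not called at 24 h. Trim25 was called lower at 3 h alone, and Irf9 was called at neither time. With the counting kind as a term, Oas1a, Bst2 and Irf9 were called lower at 24 h. The 2 durations come from separate experiments with their own controls and their own scaling, so their difference was not tested. Basal levels differed too, Irf7 for example being at 645.7 to 920.1 CPM in vehicle-treated cells and at 104.7 to 105.6 in unstimulated wild type cells.

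**Figure D3:**
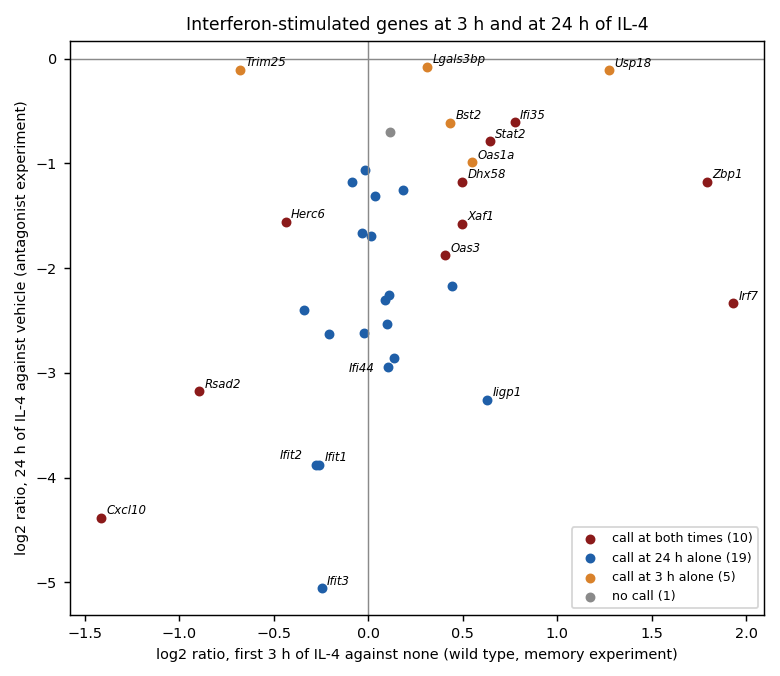
Each point is 1 of the 35 members, with its log2 ratio at the first 3 h exposure of the wild type memory cells on the horizontal axis and after 24 h of IL-4 against vehicle in the antagonist experiment on the vertical axis. Colours give the calls: 10 members at both times, 19 at 24 h alone, 5 at 3 h alone and 1 at neither. All points lie below 0 on the vertical axis, while Irf7 (1.93) and Zbp1 (1.79) are farthest to the right and Cxcl10 (-1.41) farthest to the left.

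A day after washout of a 24 h IL-4 treatment, part of the list was lower than in cells that had never met IL-4. The labels give no washout time for the unstimulated and first-exposure groups. It is therefore not known if those cells were kept as long, and time in culture cannot be told apart from earlier IL-4. This also applies to the second against the first exposure. In wild type cells 11 members were lower and 2 higher (background 7.14% and 7.29% of 11368 genes), with a median of -0.19. Irf7 was at 34.8 and 42.7 CPM against 104.7 and 105.6, a log2 ratio of -1.42 (SE 0.11, limma adjusted p 2.32e-07). Oasl2 was at 51.5 and 68.1 CPM against 141.9 and 127.4 (-1.16, SE 0.12, limma adjusted p 6.06e-06), and Ifi44 at 0.301 and 1.48 against 3.86 and 2.87 (-1.21, SE 0.30, limma adjusted p 0.00936). The Ifi44 call was lost without the deeper library of either group. The others were Oas3 (-1.11), Rtp4 (-1.06), Oas1a (-0.96), Bst2 (-0.89), Lgals3bp (-0.64), Oas2 (-0.53), Siglec1 (-0.52) and Ifi35 (-0.40). Rsad2, at 29.0 and 32.2 CPM against 16.6 and 16.6, was higher (0.85), as was Cmpk2 (0.61). Neither was called with the counting kind as a term, without group weights, or without either unstimulated library or the shallower washed-out one. Of the memory groups only this washed-out one held libraries of both kinds. The kind term therefore amounts here to leaving out its shallower library, and the 2 are not separate checks. Ifi35 lost its call in each of the 4 omissions, Oas2 without the deeper washed-out library and Siglec1 without the shallower unstimulated one. Ifit1 (0.29), Ifit2 (0.58) and Ifit3 (0.04), the family with the largest fall at 24 h, were not called. Summed neutrophil markers were at 68.7 CPM in unstimulated and 26.8 in washed-out wild type cells, and at 45.9 and 20.4 in knockout-labelled cells, and their part was not tested.

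In knockout-labelled cells 10 members were lower and 3 higher after washout (background 10.6% and 9.6% of 11229 genes). In neither genotype did the share called higher stand out from that of all genes. Irf7 was at 75.1 and 81.9 CPM against 151.8 and 164.5 (log2 ratio -1.001, SE 0.09, limma adjusted p 2.98e-07), and Rtp4 at 56.5 and 48.2 against 94.8 and 98.4 (-0.87, SE 0.12, limma adjusted p 5.08e-05). Rsad2 was higher, at 32.2 and 24.9 CPM against 17.6 and 15.3 (0.76, SE 0.19, limma adjusted p 0.00937), a call lost without the shallower unstimulated or the deeper washed-out library. Without the latter none of the 3 rises was called, and without the former 1 was. Without group weights 3 members were lower (Irf7, Oasl2 and Rtp4) and none higher. Irf7, Oas2, Oas3, Oasl2, Siglec1, Rtp4, Bst2 and Lgals3bp were lower in both genotypes, and Rsad2 and Cmpk2 higher in both. The test of the genotypes' difference called no member with limma or with voom (0.0% of 11506 genes in each direction), and 6 had an unadjusted p under 0.05. With the counting kind as a term, Oas3 was called as less lowered in the knockout-labelled cells (0.85). For the wild type washed-out group that fit rests in effect on the deeper library. Without either wild type washed-out library 1 member was called.

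**Figure D4:**
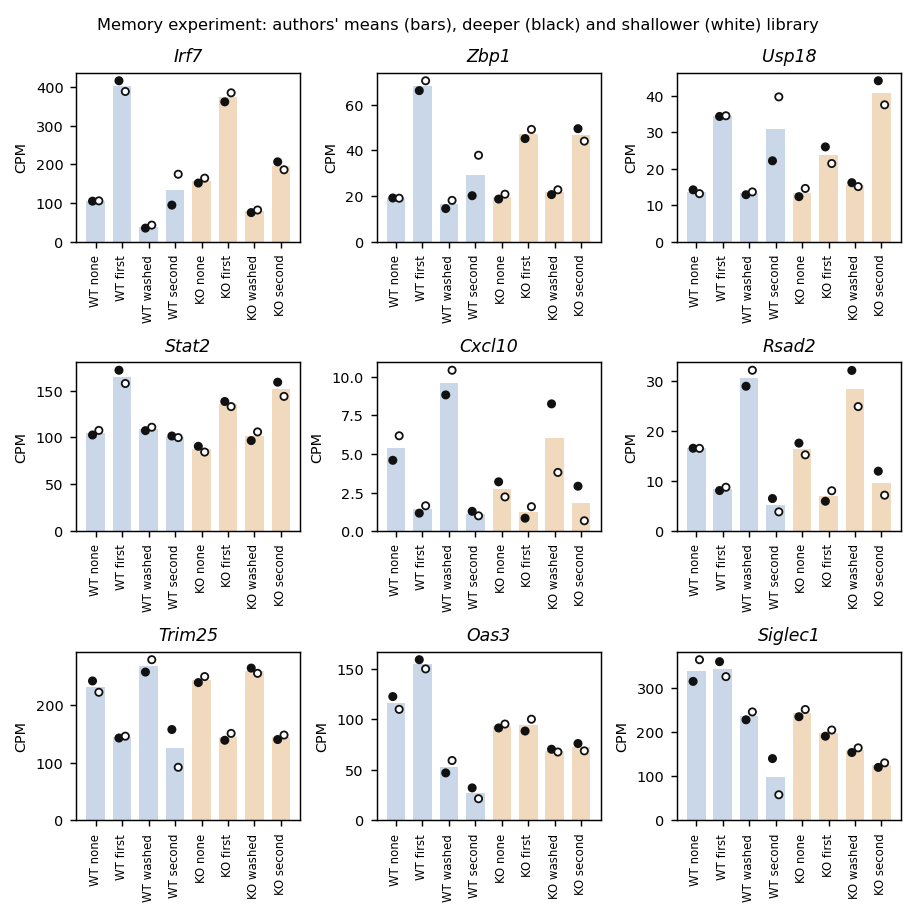
Levels of 9 members in the memory experiment in CPM (vertical axis, from 0), for unstimulated ("none"), first exposure ("first"), washed-out ("washed") and second exposure ("second") groups of wild type (WT) and knockout-labelled (KO) cells. Bars are the authors' means, black points the deeper and white points the shallower library. Irf7 has a higher mean after each 3 h exposure than before it and is lowest after washout, Cxcl10 and Rsad2 show the reverse, and the 2 points of the WT second-exposure group lie far apart for Irf7 (94.6 and 174.6) and Siglec1 (139.9 and 58.1).

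The second 3 h exposure started from the washed-out level. In knockout-labelled cells restimulation raised 8 members and lowered 9 relative to the washed-out state (background 19.4% and 16.6% of 11281 genes). Rsad2 went from 32.2 and 24.9 CPM to 11.99 and 7.18 (log2 ratio -1.48, SE 0.20, limma adjusted p 9.82e-06), Usp18 from 16.2 and 15.1 up to 44.1 and 37.5 (1.33, SE 0.13, limma adjusted p 3.4e-07), and Cxcl10 from 8.25 and 3.80 to 2.91 and 0.665 (-1.33, SE 0.35, limma adjusted p 0.0047). Irf7 (1.31) and Zbp1 (1.08) rose again. The Cxcl10 call was lost without the deeper washed-out or the shallower second-exposure library, each of which left 5 members lower, and without the shallower washed-out library 5 were higher. Without group weights 5 were lower. The second response was called as different from the first for no member by limma or by voom (0 of 35, background 1.08% higher and 0.542% lower of 11434 genes), with 4 members at an unadjusted p under 0.05.

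Between the 2 exposures themselves, 13 members were lower and 2 higher at the second in knockout-labelled cells (background 10.2% and 13.1% of 11189 genes). Irf7 was at 206.8 and 186.2 CPM against 362.4 and 385.8 (log2 ratio -0.93, SE 0.09, limma adjusted p 1.12e-06). Iigp1 was at 2.09 and 1.064 against 2.92 and 5.62 (-1.03, SE 0.34, limma adjusted p 0.0399), near the detection limit. Mx1 was higher, at 19.4 and 15.7 CPM against 6.25 and 11.8 (0.89, SE 0.20, limma adjusted p 0.0023), and Usp18 was higher too (0.76). Of the 15 calls, 11 held without any 1 library. The Mx1 call was lost without the deeper first-exposure library, the Iigp1 and Oas3 calls without the shallower library of either group, and the Oas1a call in 3 of 4 omissions. Without group weights 1 member was higher and 7 were lower, with Usp18 and Iigp1 among the calls lost.

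In wild type cells the second exposure had lower values than the first for all 35 members, with a median of -0.998, and 17 were lower by more than 2-fold against 0.909% of all genes. Both second-exposure libraries lay below both first-exposure libraries for 32 of 35 members, against 20.1% of all genes. The 2 second-exposure libraries differ so much from each other that the fit gave this group a weight of 0.0792, and 5 members were called lower and none higher (background 0.126% and 0.194% of 11879 genes). Oas3 was at 32.2 and 21.5 CPM against 158.8 and 149.7 (log2 ratio -2.48, SE 0.30, limma adjusted p 0.000857). Oasl2 was at 34.2 and 40.9 against 148.9 and 137.3 (-1.90, SE 0.31, limma adjusted p 0.0113) and Siglec1 at 139.9 and 58.1 against 358.8 and 325.0 (-1.78, SE 0.30, limma adjusted p 0.0070). Oas2 (-1.59) and Irf7 (-1.58) were the others. The Oas3 call alone held in every omission of 1 library. Oasl2, Irf7 and Oas2 were not called without the deeper second-exposure library, nor Siglec1 and Oas2 without the shallower one. With no filter on low values Oas3 was the only call, while voom called 12 members lower, the fit without group weights 25 and the fit with the counting kind 8.

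The fibroblast markers named above were 1136 CPM in the deeper of these libraries, and neutrophil markers were 133.0 CPM in it and 45.4 in the shallower one. The shallower library was the one with the length measure of -1.05, and Oas3 and Siglec1 have longest transcripts of 4720 and 6387 bases. The part of these differences in the members' lower values was not tested. Without the deeper library the members' median was -0.90 with 2 calls, and without the shallower one it was -1.21 with 4 calls. Against the washed-out state, wild type restimulation raised Irf7 (1.77, SE 0.29, limma adjusted p 0.0029) and lowered Rsad2 (-2.36, SE 0.64, limma adjusted p 0.0438), Cmpk2 (-1.94, SE 0.45, limma adjusted p 0.0191), Oas2 (-1.27), Siglec1 (-1.25) and Trim25 (-1.09), of 34 tested (background 2.62% higher and 2.25% lower of 11957 genes). No call remained without the shallower second-exposure library, 2 members were lower without the deeper one and 9 without the deeper washed-out library. Without group weights 4 were higher and 22 lower, and with no filter 1 was lower. The second response of wild type cells differed from the first for no member by limma or by voom (background 0.0% higher and 0.0166% lower of 12073 genes), although 14 members had an unadjusted p under 0.05, 5 were called lower without the deeper washed-out library, and 6 without group weights.

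**Figure D5:**
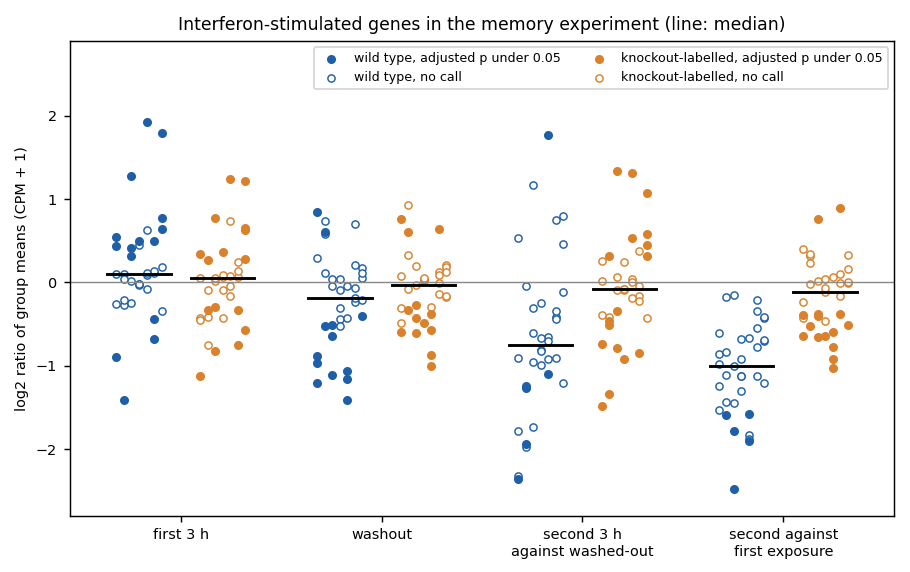
Log2 ratio of group means (vertical axis, CPM + 1) of the members in 4 comparisons of the memory experiment, for wild type (blue) and knockout-labelled (orange) cells. Each point is 1 gene, filled at an adjusted p under 0.05, and black lines are medians. The wild type medians run from 0.10 at the first 3 h to -0.998 for the second against the first exposure, and the knockout-labelled medians from 0.05 to -0.12.

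The genotype comparisons are nearly confounded with the counting kind of the libraries. Of the memory groups only the washed-out wild type one held libraries of both kinds. The kind term in this experiment therefore rests on the difference between its 2 libraries. In unstimulated cells 2 members were higher and 6 lower in the knockout-labelled group (background 7.77% and 10.6% of 11279 genes), led by Oas1a (-0.91, SE 0.12, limma adjusted p 7.03e-05), Irf7 (0.58, SE 0.08, limma adjusted p 0.00014) and Siglec1 (-0.48, SE 0.09, limma adjusted p 0.0012). With the counting kind as a term no member was called. These libraries split by kind exactly as by genotype, so the term cannot separate kind from genotype here. With it Oas1a (-0.26) and Irf7 (0.30) were smaller in size. Siglec1 (-0.59), Oas3 (-0.64), Eif2ak2 (-0.79) and Herc6 (-0.51) were larger. Some calls were also lost when 1 library was left out. The Bst2 rise was lost in each of the 4 omissions, and without group weights 1 member was lower and none higher. After the first exposure 10 were lower and none higher (background 7.58% and 1.58% of 11244 genes): Oas1a (-1.12), Ifit3 (-1.05), Siglec1, Oas3, Zbp1, Usp18, Dhx58, Oasl2, Lgals3bp and Stat2. Siglec1 was at 190.4 and 204.4 CPM against 358.8 and 325.0 (-0.79, SE 0.10, limma adjusted p 0.000104), and the 2 largest belong to the genes with shared sequence. With the counting kind as a term 1 call was left, Oas3 at -1.04. The libraries of these groups again split by kind exactly as by genotype. With the term Oas1a (-0.47) and Ifit3 (-0.86) were smaller in size, while Siglec1 (-0.90) and Zbp1 (-0.83) were larger. Without the deeper library of either genotype 4 calls were left, and without the shallower knockout-labelled one 5. The Ifit3 call was lost in the first 2 of these omissions. Without group weights 2 calls were left.

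After washout 4 members were higher in the knockout-labelled cells, Irf7 (1.00, SE 0.11, limma adjusted p 0.000184), Bst2 (0.51, SE 0.09, limma adjusted p 0.0048), Oasl2 (0.49) and Lgals3bp (0.35), and Siglec1 was lower (-0.57, SE 0.12, limma adjusted p 0.021), beside 1.46% of genes higher and 2.0% lower of 11346. With the counting kind as a term, Irf7 (0.86), Bst2 (0.51), Siglec1 (-0.62) and also Oasl1 (1.22) were called at this stage. That fit rests in effect on the shallower wild type washed-out library, as the deeper one serves to set the term. The Siglec1 call was lost without either knockout-labelled library, and 2 members were higher without the shallower of these. Oasl2 and Lgals3bp were not called with that term, with voom or with no filter, and without group weights none of the 5 was called (limma adjusted p 0.0977 for Irf7, 0.267 for Bst2 and 0.385 for Siglec1). At the second exposure no member was called by limma and 1 was by voom (background 0.0% higher and 0.0168% lower of 11893 genes), and 11 had an unadjusted p under 0.05. The median was 0.58, with 33 of 35 ratios above 0, and both knockout-labelled libraries lay above both wild type libraries for 22 of 35 members, against 19.6% of all genes. Without group weights 14 were called higher. These values rest on the wild type second-exposure libraries, which stood apart. The change from first to second exposure differed between genotypes for Oas3 alone of 35 members and of 11990 genes (0.00834% called higher). Oas3 went from 88.3 and 100.01 CPM to 76.0 and 68.8 in the knockout-labelled cells and from 158.8 and 149.7 to 32.2 and 21.5 in wild type cells (difference 2.10, SE 0.31, limma adjusted p 0.0489). That call was lost without either wild type first-exposure library, without the deeper wild type second-exposure library, and without either knockout-labelled second-exposure library, and it was also lost with voom, with another scaling and with no filter on low values. The deeper wild type second-exposure library held the fibroblast markers and the shallower one the length measure of -1.05, and their part was not tested.

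Other genes of the interferon pathway were read through lists that do not overlap the members. Their counts stand beside the shares of all genes called: 9.79% higher and 8.33% lower at 24 h, 26.3% and 25.1% at 24 h with GW9662 in both groups, and 24.7% and 24.9% at 3 h in wild type cells. Of 14 genes for receptors and JAK-STAT signalling, 2 rose and 5 fell at 24 h of IL-4: Socs1, a feedback inhibitor of JAK kinases, was at a log2 ratio of 5.204, while Ifnar2 was at -0.75. At 3 h in wild type cells 5 rose and 6 fell, with Socs1 at 7.13, Ifnar1 at -0.69 and Ifnar2 at -0.31. Of 19 genes of sensing and interferon induction, 2 rose and 5 fell at 24 h, the endosomal receptors Tlr9 (-1.94), Tlr7 (-1.79) and Tlr3 (-0.91) among those that fell, and 8 rose and 7 fell at 3 h. Of 31 further interferon-induced genes tested, 18 fell and none rose at 24 h (median -1.27), and 24 of 31 fell with GW9662 in both groups. At 3 h, 8 of 30 rose and 5 fell (median 0.04). Of 19 GTPases and factors of the interferon-gamma type, 2 rose and 7 fell at 24 h, with Irgm2 at -1.74 and Irf8 at -0.66, and 14 rose and none fell at 3 h (median 0.53), among them Irf1 at 0.88.

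Among the 10 genes whose pattern over the 12 group means was most like the members' median profile were Pydc3 (Pearson r 0.980), Slfn8 (0.977), Fgd2 (0.973), Pydc4 (0.972), Irgm2 (0.972), Rbm43 (0.969), Nfxl1 (0.964), Ddx60 (0.963) and Caskin2 (0.960), with each experiment centred on its own mean. Within the list Iigp1 (0.981) and Isg15 (0.980) followed the median profile most closely, and Usp18 (-0.05), Trim25 (0.14), Lgals3bp (0.47) and Zbp1 (0.53) least. The groups of an experiment share their scaling, so these are descriptions with no test.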

How the data were processed

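Poly-A RNA was sequenced from 24 macrophage samples. The authors deposited, per the file headers, 1 averaged value per gene and group in 2 tables, a signal in mean CPM (counts scaled to library size), with no per-sample column. TopHat2 2.0.7, Cufflinks 2.0.2 and build mm10 are named in the submitters' processing notes, with no role. The counting tool is not given in the sources used here. No column was left unused (0).

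Each mean is a sum of whole reads of 2 libraries, each divided by its total. Those reads were solved for, and 170960 of 171808 values above 0 (99.5%) had 1 solution, 413 a plausible one (library values within 1.5-fold) and 435 none chosen. Of the members' 420 values 416 had 1 solution, Lgals3bp was plausible in both IL-4 groups of the antagonist experiment, and was not resolved in its vehicle and GW9662 groups, where the mean entered the fit once. The design had assumed values per sample, so the test uses these libraries.

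The test was limma-trend (limma 3.58.1, R 4.3.3) on log2(CPM + 1), with 1 coefficient and 1 weight per group, a low-value filter (mean of 1 CPM or more in either group), p-values adjusted (Benjamini-Hochberg) over all genes tested, and a call at 0.05. Sizes are log2 ratios of the authors' means with 1 CPM added. The code was tested on simulated data. There were 22 comparisons, 2 of them added after the data were seen: IL-4 with GW9662 in both groups, and the genotypes' difference from first to second exposure. Alternatives were a pseudocount of 0.25 CPM, no filter, no weights, voom, median-ratio scaling, the counting kind as a term, leaving out each library, and leaving out the 6 members that share at least 5% of their 50-base words with other genes. The last was chosen after seeing the data.

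The members and the other gene lists were chosen with earlier results of these data known. In each comparison full statistics are given for the 3 called members with the largest ratio, or the 3 largest where fewer were called. Others are named by role. 1 gene among those compared with the members is not reported here.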

Additional observations from a re-analysis of the deposited data

Results flagged for a closer look

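Oas3 was the member whose change from first to second IL-4 exposure differed between genotypes in the test of the difference itself: 2.10 on the log2 scale (SE 0.31, limma adjusted p 0.0489), with a ratio of -0.38 in knockout-labelled cells and -2.48 in wild type cells. The call was lost with voom, with median-ratio scaling, with no filter on low values and without any 1 of 5 libraries of the 8 in the comparison. The deeper wild type second-exposure library held fibroblast markers at 1136 CPM. In the shallower one long transcripts were under-represented (longest minus shortest genes -1.05 on the log2 scale, against -0.16 to 0.36 in the memory libraries outside this group), and the longest Oas3 transcript has 4720 bases. The part of either in this difference was not tested.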

How the results depend on the processing

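No paired analysis was possible because the columns carry no replicate numbers. Of 184 calls of members, 92 held under every alternative, and over all calls and alternatives the verdict was kept 1568 times and the call lost 276 times with the same direction. No value changed direction among those called. Where a group was left with 1 library, that library kept its group's weight from the fit with all libraries. That weight was 0.211 for 24 h of IL-4 and 0.0792 for the wild type second exposure. The spread was then estimated from the other groups. TMM scaling was not run, and median-ratio scaling was.

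The counts below are of members called. Without group weights they were 7 higher (11 in the text) at the first 3 h in wild type cells, 5 higher and 2 lower (9 and 7) in knockout-labelled cells, 0 higher after washout in wild type cells, 0 higher and 3 lower (3 and 10) in knockout-labelled cells, 25 lower (5) for second against first exposure in wild type cells, 1 higher and 7 lower (2 and 13) in knockout-labelled cells, 4 higher and 22 lower (1 and 5) for wild type restimulation, 5 lower (9) for knockout-labelled restimulation, and 6 lower (0) for the second response against the first in wild type cells. Between genotypes they were 0 higher and 1 lower (2 and 6) unstimulated, 2 lower (10) at the first exposure, 0 higher and 0 lower (4 and 1) washed-out, 14 higher (0) at the second exposure, and 4 higher (1) for the difference from first to second exposure. With no filter they were 1 higher for wild type washout, 1 lower for second against first exposure, 1 lower for restimulation in wild type cells, 2 higher between washed-out genotypes and 0 for the difference from first to second exposure. With voom the last was 0, second against first exposure in wild type cells 12 lower, washed-out genotypes 2 higher and genotypes at the second exposure 1 higher. With median-ratio scaling the difference from first to second exposure was 0. With the counting kind as a term they were 3 lower for GW9662 alone, 0 higher for wild type washout, 8 lower for second against first exposure in wild type cells, 0 higher and 0 lower between unstimulated genotypes, 1 lower between genotypes at the first exposure, 1 lower for their difference in first response, 1 higher for their difference after washout and 2 higher from first to second exposure. In the memory experiment the kind term rests on the 2 washed-out wild type libraries. Without the members that share sequence 4 were lower at the first 3 h in knockout-labelled cells.

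With 1 library left out, counts ranged from 5 to 8 higher and 3 to 6 lower at the first 3 h in knockout-labelled cells, 0 to 3 higher after washout in wild type and 0 to 3 in knockout-labelled cells, 2 to 5 lower for second against first exposure in wild type cells, 1 to 3 higher in knockout-labelled cells, 0 to 1 higher and 0 to 9 lower for wild type restimulation, 5 to 8 higher and 5 to 13 lower for knockout-labelled restimulation, and 0 to 5 lower for the second wild type response against the first. Between genotypes they ranged from 1 to 1 higher and 2 to 4 lower unstimulated, 4 to 7 lower at the first exposure, 2 to 6 higher and 0 to 3 lower washed-out, 0 to 1 lower for the first response, 0 to 1 higher for washout and 0 to 1 higher from first to second exposure. The cause of these changes was not tested. The depth limits Cxcl10, Iigp1, Mx2 and Ifi44 most, whose lowest libraries were near the level of 3 reads.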
